A study of Mus musculus with 6 samples.

Results

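The genes described here are 33 mouse genes that take glucose into the cell, break it down to pyruvate and move lactate across the plasma membrane. They were chosen by symbol from a fixed list, which holds 33 of the 30281 gene symbols in the deposited tables and 224 annotated transcripts. RNA was sequenced from 6 mouse libraries, 1 for each cell line and condition. The MEFs (mouse embryonic fibroblasts) gave 1 library labelled Tsc2-/- p53-/- and 1 labelled Tsc2+/+ p53-/-, so both MEF lines lack p53 and differ in the label for *Tsc2*, and neither received rapamycin. MKOC and TJ are mouse kidney epithelial lines labelled Tsc2-null, TJ having been derived from a secondary tumor grown in C57BL6 mice. Each gave 1 untreated library, given the diluent, and 1 library of cells given rapamycin, at 100 nM over 18 hr, without serum. Each line stands for itself: 1 MEF line per genotype, 1 MKOC line and 1 TJ line, so a genotype cannot be told apart from the line that carries it.

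Library depth ranged from 22887020 to 37505004 estimated counts. The label for *Tsc2* could not be checked by its absence, because *Tsc2* RNA was counted in every library. TPM is a level scaled to the library total and corrected for transcript length. It was 22.6 TPM in the library labelled Tsc2+/+ and 10.5 TPM in the library labelled Tsc2-/-. The kidney lines, labelled Tsc2-null, were at 49.1 and 44.0 TPM untreated, above the Tsc2+/+ MEF library, and at 19.5 and 19.1 TPM with rapamycin. Whether this RNA encodes a working protein was not tested. The study reports its own check that *Tsc2* was expressed in the Tsc2+/+ MEFs and not in the Tsc2-/- MEFs. Of 9 kidney epithelial markers, 7 reached 1 TPM in each kidney library, while *Epcam* and *Krt19* did not. The MEF libraries carried 7 (Tsc2+/+) and 9 (Tsc2-/-) of 9 fibroblast markers at that level, and each kidney library 1 or 2. The one that reached 1 TPM in every library, *Vim*, was higher in the kidney lines (3609 to 7523 TPM) than in the Tsc2+/+ (3522 TPM) and Tsc2-/- (1118 TPM) MEFs. The Tsc2-/- MEF library also carried the epithelial keratins *Krt19* at 55.6 TPM and *Krt18* at 20.6 TPM. *Ptprc*, *Adgre1* and *Lyz2* of the 5 macrophage markers were under 1 TPM in all 6 libraries, while *Csf1r* reached 11.3 to 30.3 TPM in the kidney lines and *Cd68* was at 1.69 to 8.01 TPM in all 6. In bulk RNA, fewer cells of a type and less RNA per cell cannot be told apart.

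Glycolysis splits each glucose into a pair of pyruvates through a chain of cytosolic enzymes, with hexokinase, phosphofructokinase and pyruvate kinase as the committed, regulated steps. Most steps are served by several isozymes made from separate genes, and lactate dehydrogenase with the monocarboxylate transporters disposes of pyruvate as lactate, while pyruvate dehydrogenase kinases restrain its entry into mitochondria. The kinase complex mTORC1, which rapamycin inhibits and the TSC complex restrains, is known to raise transcription of many of these genes through the hypoxia-inducible factor HIF-1 and Myc.

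The stretches of sequence that bear on these genes are of 2 kinds. HIF-1 is known to bind ACGTG or GCGTG, and Myc and its relatives bind CACGTG, a palindrome that holds ACGTG on each strand. These letters were searched on both strands in the 250 bases before each RefSeq transcription start (GRCm38.p6). Of the 33 genes, 32 had at least 1 such window and *Slc2a3* had none in the table used, giving 51 windows in all. Of these, 24 held no annotated exon, and 43 had bases that matched a GENCODE transcript start on the gene's strand. The letters ACGTG or GCGTG stood in 38 of the 51 windows (74.5%), against 38.6% of all 32851 windows of this length. The hexamer CACGTG stood in 6 of 51 windows, or 11.8%, against 6.02% of all windows. The windows of these genes held a median of 12 CG dinucleotides and all windows a median of 6, and each motif contains a CG, so the shares were not compared at equal CG content. A match is a string of letters and not a measured binding site. At least 1 window with ACGTG or GCGTG was found for 19 of the 21 genes that fell with rapamycin and for 9 of the 11 other genes with a window.

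Shown next are the windows of the 4 genes with the steepest falls under rapamycin among those whose window held a match and overlapped no annotated exon, all on the + strand, with ACGTG and GCGTG, read on either strand, in capitals. They are shown for where the letters lie. They were chosen for holding a match, and *Tpi1*, which fell more than *Pgk1*, *Pgam1* and *Eno1*, had none in its window, so they do not link the letters to the RNA changes. The windows are chr7:46845554-46845803 for *Ldha*, chrX:106186850-106187099 for *Pgk1*, chr19:41911621-41911870 for *Pgam1* and chr4:150236458-150236707 for *Eno1*.
Ldha: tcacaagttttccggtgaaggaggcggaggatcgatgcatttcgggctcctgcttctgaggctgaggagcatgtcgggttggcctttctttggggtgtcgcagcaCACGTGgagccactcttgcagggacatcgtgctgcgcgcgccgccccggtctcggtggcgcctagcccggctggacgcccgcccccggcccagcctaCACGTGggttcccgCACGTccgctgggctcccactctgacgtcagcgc
Pgk1: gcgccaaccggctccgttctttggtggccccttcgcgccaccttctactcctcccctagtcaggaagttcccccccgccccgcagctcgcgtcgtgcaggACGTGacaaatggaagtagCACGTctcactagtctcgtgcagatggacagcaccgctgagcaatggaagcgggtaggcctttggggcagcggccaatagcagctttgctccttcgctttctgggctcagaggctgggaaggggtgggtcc
Pgam1: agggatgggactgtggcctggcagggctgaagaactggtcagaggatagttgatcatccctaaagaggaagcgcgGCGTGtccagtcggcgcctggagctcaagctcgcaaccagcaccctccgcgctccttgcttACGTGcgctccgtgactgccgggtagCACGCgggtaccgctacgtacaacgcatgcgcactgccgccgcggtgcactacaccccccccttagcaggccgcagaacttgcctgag
Eno1: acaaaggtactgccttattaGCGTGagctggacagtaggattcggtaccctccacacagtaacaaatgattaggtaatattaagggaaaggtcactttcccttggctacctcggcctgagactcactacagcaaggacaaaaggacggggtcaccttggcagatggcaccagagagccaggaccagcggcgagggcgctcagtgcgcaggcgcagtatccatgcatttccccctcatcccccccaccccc

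The *Ldha* window held 5 matches, all of ACGTG, in a stretch from 145 to 29 bases before the start, and 4 of the 5 lay within its 2 CACGTG hexamers. The *Pgk1* window held 2 ACGTG matches on opposite strands, between 150 and 126 bases before the start. The *Pgam1* window held 1 ACGTG and 2 GCGTG matches, and the *Eno1* window held 1 GCGTG match.

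The other pair of sequences are the mutually exclusive exons of *Pkm*, the pyruvate kinase gene, which decide whether its RNA encodes the M1 or the M2 enzyme. Both lie on the + strand of GRCm38, the M1 exon at chr9:59675029-59675195 and the M2 exon at chr9:59675568-59675734, and both are coding exons of 167 bases. Capitals mark the bases that differ between them, 64 of 167, which leaves 61.7% identity and is what lets reads be assigned to one isoform.
Pkm M1 exon: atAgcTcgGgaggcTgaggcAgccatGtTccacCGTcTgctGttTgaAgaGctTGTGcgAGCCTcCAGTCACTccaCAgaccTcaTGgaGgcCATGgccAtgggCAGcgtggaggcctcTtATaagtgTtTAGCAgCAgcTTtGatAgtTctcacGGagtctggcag
Pkm M2 exon: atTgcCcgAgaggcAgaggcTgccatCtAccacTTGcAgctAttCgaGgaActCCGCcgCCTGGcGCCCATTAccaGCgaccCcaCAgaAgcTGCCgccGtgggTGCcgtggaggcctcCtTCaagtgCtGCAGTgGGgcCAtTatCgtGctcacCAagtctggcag

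As a group these genes took a larger share of the RNA in the untreated kidney lines than in any other library. Their TPM summed to 0.569% of the total for Tsc2+/+ MEFs and 1.23% for Tsc2-/- MEFs. The sum was 2.33% in MKOC cells and 2.41% in TJ cells without rapamycin, and 0.928% and 1.13% with it. The share of estimated counts, which is not corrected for transcript length, was 0.793% and 1.04% in the Tsc2+/+ and Tsc2-/- MEFs, a smaller difference than by TPM. In the kidney lines it moved the same way as the TPM, from 2.45% to 1.004% in MKOC cells and from 2.50% to 1.24% in TJ cells. *Gapdh*, the dehydrogenase that makes the first NADH of the pathway, had the highest summed TPM of the members in all 6 libraries, at 1273 and 4513 TPM in the Tsc2+/+ and Tsc2-/- MEFs, 5959 and 2692 TPM in MKOC cells before and after rapamycin, and 7193 and 3524 TPM in TJ cells. In the Tsc2-/- MEFs this rested on short transcripts, described later, and its main coding transcript was at 624 TPM, below *Pkm* (1428 TPM) and *Aldoa* (1366 TPM). By level *Gapdh* ranked 7 and 9 of the 30281 symbols in untreated MKOC and TJ cells. *Ldha* ranked 25 and 23 there. *Hk3*, a hexokinase of blood cells, was at the other end, with 0 counts in 4 libraries and 1 count in each of the others.

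**Figure D1:**
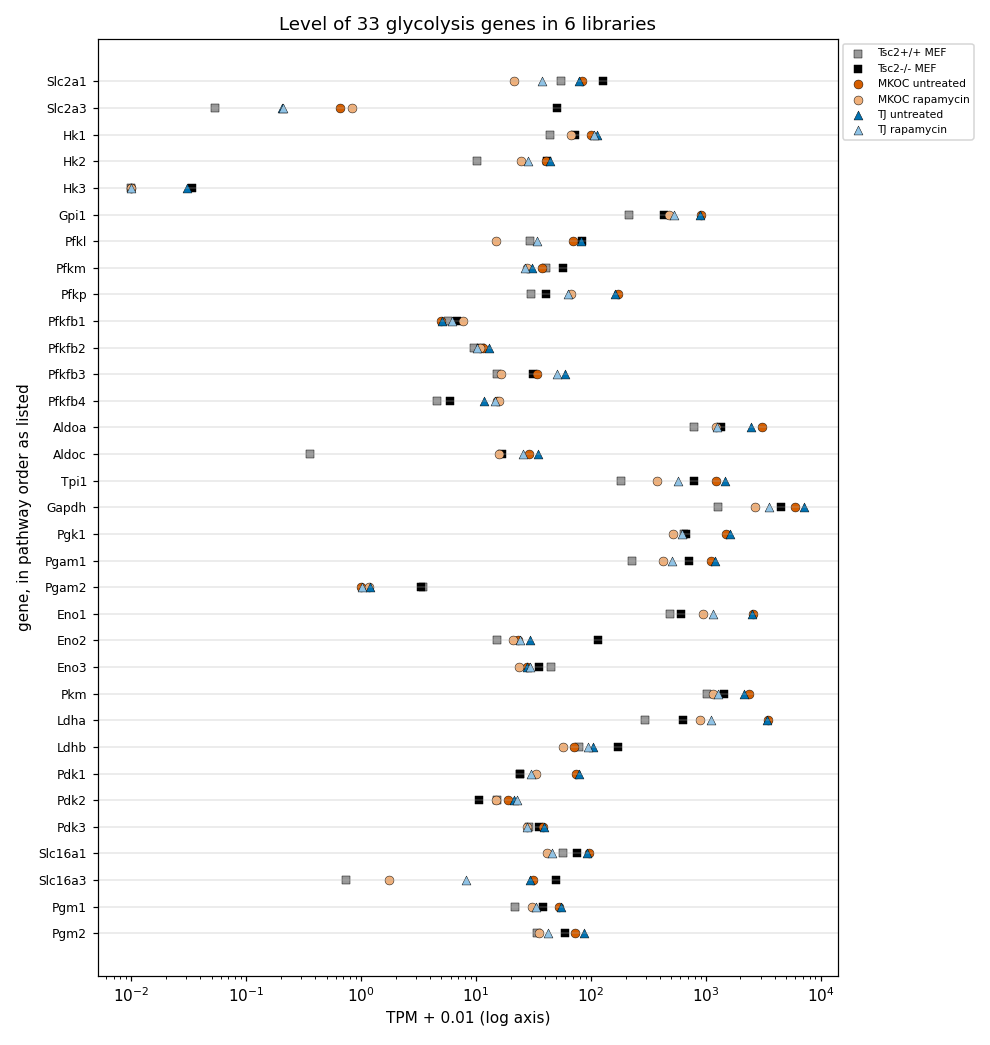
Level of each of the 33 genes (TPM with 0.01 added so that zeros appear, log axis) in the 6 libraries, 1 point per library. Grey and black squares are the Tsc2+/+ and Tsc2-/- MEFs, and filled and pale circles and triangles are untreated and rapamycin-treated MKOC and TJ cells. For Ldha the pale points sit at 891 and 1119 TPM and the filled ones at 3486 and 3379 TPM, while Hk3 lies near 0 throughout.

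Rapamycin lowered most of the pathway. Of the 32 genes with enough counts to test, 21 were called lower (edgeR quasi-likelihood test blocked by cell line, Benjamini-Hochberg adjusted p under 0.05), which is 65.6% of them, against 17.4% of all 12952 genes tested. None was called higher, against 17.5% of all genes. No member rose even at an unadjusted p under 0.05 in edgeR, and DESeq2 and limma also called 0 higher. The fall was at least 2-fold in 14 of the 32, against 2.54% of all genes tested. The members' median log2 fold change was -0.81, and over all genes tested the median was 0.02. The list was set out with an earlier result on these libraries known, in which a glycolysis list fell in both lines, so its direction is not independent evidence. The test treats the 2 lines as replicates, with 1 residual degree of freedom per gene. It draws each gene's variance toward a trend over all genes, so its p-values rest only in part on how alike these 2 lines responded. *Slc16a3*, for example, was called lower though its paired changes were -4.14 in MKOC and -1.90 in TJ. Without the cell line as covariate, 5 of the 21 genes were no longer called (*Pfkl*, *Pfkfb3*, *Aldoc*, *Pdk3* and *Slc16a3*). Rapamycin-treated cells had a larger summed level of the kidney epithelial markers than untreated cells (2109 against 1461 TPM in MKOC, 2502 against 1677 TPM in TJ). Single markers differed. *Krt8* was higher in both lines (918 against 539 TPM in MKOC, 990 against 560 TPM in TJ). *Pax8* (121 against 141 TPM) and *Pax2* (12.2 against 15.0 TPM) were lower in MKOC cells, and in TJ cells both were higher. *Vim* was also higher with rapamycin (7523 against 4676 TPM in MKOC, 5292 against 3609 TPM in TJ), as was the macrophage marker *Csf1r* (17.7 against 11.3 TPM, and 30.3 against 24.99 TPM), whereas *Cd68*, another, was lower (5.33 against 7.08 TPM, and 4.48 against 8.01 TPM). The part of these in the result was not tested.

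Glucose enters through facilitative transporters of the SLC2 family. *Slc2a1*, which encodes the broadly expressed transporter GLUT1, was at 82.8 TPM in untreated MKOC cells and 21.4 TPM with rapamycin, and at 79.0 and 37.2 TPM in TJ cells. The untreated libraries lay close together, the treated ones lay below both, and the fitted level fell to 34.8% of untreated (log2 fold change -1.52 ± 0.17 SE, edgeR adjusted p = 0.000175). *Slc2a3*, the high-affinity transporter GLUT3, was barely present in these lines, at 0.649 TPM untreated and 0.821 TPM treated in MKOC cells and at 0.195 and 0.201 TPM in TJ cells. It was not called (edgeR adjusted p = 0.356), and its log2 fold change was -0.52 ± 0.42 from counts but 0.075 from TPM with 1 added (limma), so it has no direction here.

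Hexokinases trap glucose as glucose 6-phosphate. *Hk2*, the inducible isozyme that binds mitochondria, was at 40.8 and 24.8 TPM in MKOC cells and 43.9 and 28.2 TPM in TJ cells, and fell to 62.1% of untreated (edgeR adjusted p = 0.000674). *Hk1*, the housekeeping isozyme, was the more abundant, at 100.0 and 67.1 TPM in MKOC cells and 112 and 106 TPM in TJ cells. It was lower with rapamycin in MKOC cells by 0.58 on the log2 scale and in TJ cells by little (-0.09), and was not called (edgeR adjusted p = 0.0603). *Gpi1*, the isomerase that makes fructose 6-phosphate, went from 899.8 to 481 TPM in MKOC cells and from 895 to 529.7 TPM in TJ cells, 56.0% of untreated in the fit (edgeR adjusted p = 0.000347).

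Phosphofructokinase commits the sugar to glycolysis, and its 3 genes behaved unequally. *Pfkl*, the liver-type subunit, was at 70.1 and 14.8 TPM in MKOC cells and 82.8 and 34.2 TPM in TJ cells, a fall to 29.6% of untreated (log2 fold change -1.76 ± 0.18, edgeR adjusted p = 0.000116). *Pfkp*, the platelet-type subunit and the most abundant of the 3 in these lines, fell from 173 to 67.1 TPM in MKOC cells and from 164 to 63.4 TPM in TJ cells (-1.37 ± 0.10, edgeR adjusted p = 1.43e-05). *Pfkm*, the muscle-type subunit, was at 37.2 and 28.0 TPM in MKOC cells and 30.4 and 26.7 TPM in TJ cells, and did not pass (-0.30 ± 0.11, edgeR adjusted p = 0.0592). The muscle-type share of phosphofructokinase TPM thus stood at 13.3% in untreated and 25.5% in treated MKOC cells, and at 10.99% and 21.5% in TJ cells.

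The PFKFB enzymes make and remove fructose 2,6-bisphosphate, the allosteric activator of phosphofructokinase. *Pfkfb3*, the isozyme with the strongest bias to synthesis, was at 33.7 and 16.5 TPM in MKOC cells and at 59.0 and 51.0 TPM in TJ cells. It was called lower (-0.64 ± 0.16, edgeR adjusted p = 0.011), yet the lines overlapped, treated TJ cells lying above untreated MKOC cells. The paired changes were -1.02 in MKOC and -0.27 in TJ. Without the cell line in the model it was not called (edgeR adjusted p = 0.601). In such fits on 3 libraries its log2 fold change turned to 0.10 without treated MKOC and 0.016 without untreated TJ. It was -0.87 without untreated MKOC and -1.53 without treated TJ. *Pfkfb1*, *Pfkfb2* and *Pfkfb4* were low, at 4.93 to 15.9 TPM, and none was called. *Pfkfb1* and *Pfkfb4* were higher in the treated library of both lines, with log2 fold changes of 0.39 ± 0.24 and 0.19 ± 0.12 (edgeR adjusted p = 0.23 and 0.249).

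In the middle of the pathway, aldolase and triose phosphate isomerase split and balance the sugar phosphates. *Aldoa*, the main aldolase, was at 3089 and 1218 TPM in MKOC cells and 2466 and 1257 TPM in TJ cells, 44.3% of untreated (edgeR adjusted p = 0.00014). *Aldoc*, the brain-type aldolase, was at 28.9 and 15.9 TPM in MKOC cells and 34.8 and 25.4 TPM in TJ cells, 65.0% of untreated (edgeR adjusted p = 0.00567). *Tpi1*, the isomerase, fell from 1229 to 375 TPM in MKOC cells and from 1470.0 to 577 TPM in TJ cells (log2 fold change -1.54 ± 0.12, edgeR adjusted p = 2.47e-05). For all 3 genes both treated libraries lay below both untreated ones.

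The payoff steps fell in both lines as well. *Gapdh* was lowered to 47.0% of untreated (edgeR adjusted p = 0.000193). *Pgk1*, the kinase that makes the first ATP of the pathway, went from 1508 to 519 TPM in MKOC cells and from 1613 to 619 TPM in TJ cells (-1.47 ± 0.11, edgeR adjusted p = 1.95e-05). *Pgam1*, the phosphoglycerate mutase, went from 1105 to 423 TPM and from 1200.4 to 504 TPM (-1.33 ± 0.11, edgeR adjusted p = 2.74e-05). These genes were abundant, so counting error was small beside the difference between lines. *Pgam2*, the muscle mutase, was near 1 TPM in all 4 kidney libraries, with 12 to 14 counts each. The SE of its log2 fold change was 0.42, so a small change could not be detected.

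Enolase and pyruvate kinase complete the chain. *Eno1*, the ubiquitous enolase, was at 2562 and 949 TPM in MKOC cells and 2517 and 1152 TPM in TJ cells, 40.9% of untreated (edgeR adjusted p = 0.000114). *Eno2* and *Eno3*, the neuronal and muscle enolases, were at 21.05 to 29.4 TPM and 23.6 to 29.4 TPM in these lines, with log2 fold changes of -0.16 ± 0.12 and -0.06 ± 0.13 that were not called. *Pkm*, which makes pyruvate, was at 2366 and 1152 TPM in MKOC cells and 2165 and 1288 TPM in TJ cells, 53.5% of untreated (edgeR adjusted p = 0.000587). The estimated isoform mix was mostly M2 with and without rapamycin. The M2 exon, printed earlier, accounted for 93.0% of *Pkm* counts in untreated and 92.3% in treated MKOC cells, and for 91.7% and 92.9% in TJ cells. Reads that touch the alternative exon, a small part of the transcript, decide this share, and their number is unknown here, so no counting interval is given and no difference between these shares is read.

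At the branch to lactate, the gene for the enzyme subunit that favours lactate formation fell far more than its partner. *Ldha* was at 3486 and 891 TPM in MKOC cells and 3379 and 1119 TPM in TJ cells, 29.0% of untreated (log2 fold change -1.79 ± 0.13, edgeR adjusted p = 1.67e-05). *Ldhb*, the heart-type subunit, was at 70.9 and 57.3 TPM in MKOC cells and 104 and 94.5 TPM in TJ cells and was not called (-0.23 ± 0.11, edgeR adjusted p = 0.129). Its share of lactate dehydrogenase TPM was 1.99% before and 6.04% after rapamycin in MKOC cells, and 2.996% and 7.79% in TJ cells.

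Lactate leaves through the monocarboxylate transporters MCT1 and MCT4, and the gene for MCT4 showed the steepest fall of the 32 genes tested. *Slc16a3*, which encodes MCT4, the export form of glycolytic cells, was at 31.5 TPM in untreated MKOC cells and 1.73 TPM with rapamycin (1170 and 50 counts), and at 29.5 and 8.21 TPM in TJ cells. It fell to 14.1% of untreated in the fit (log2 fold change -2.83 ± 0.38, edgeR adjusted p = 0.000448), with paired changes of -4.14 in MKOC and -1.90 in TJ. *Slc16a1*, which encodes MCT1, was at 96.9 and 41.5 TPM in MKOC cells and 92.7 and 45.8 TPM in TJ cells (-1.13 ± 0.10, edgeR adjusted p = 4.69e-05).

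Pyruvate dehydrogenase kinases inactivate the enzyme that sends pyruvate into the citric acid cycle. *Pdk1*, a known HIF-1 target, fell from 73.9 to 33.1 TPM in MKOC cells and from 78.3 to 29.9 TPM in TJ cells (-1.28 ± 0.11, edgeR adjusted p = 3.95e-05). *Pdk3* fell less, from 38.2 to 27.6 TPM and from 38.8 to 27.8 TPM (-0.47 ± 0.11, edgeR adjusted p = 0.008). *Pdk2* moved in opposite directions in the lines, from 18.9 to 14.8 TPM in MKOC cells and from 21.3 to 22.8 TPM in TJ cells, and was not called (edgeR adjusted p = 0.986).

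*Pgm1* and *Pgm2* are genes of the phosphoglucomutase family, and phosphoglucomutase activity links glucose 6-phosphate to glycogen. The symbols are those of the deposited tables, where *Pgm1* is the gene at chr5:64092950-64128351 (ENSMUSG00000029171) and *Pgm2* the gene at chr4:99929414-99987294 (ENSMUSG00000025791), the reverse of the names in GENCODE M21. *Pgm1* was at 52.7 and 31.0 TPM in MKOC cells and 54.9 and 33.6 TPM in TJ cells (-0.78 ± 0.11, edgeR adjusted p = 0.000516). *Pgm2* was at 72.7 and 35.2 TPM and at 86.8 and 42.6 TPM (-1.05 ± 0.10, edgeR adjusted p = 8.4e-05).

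**Figure D2:**
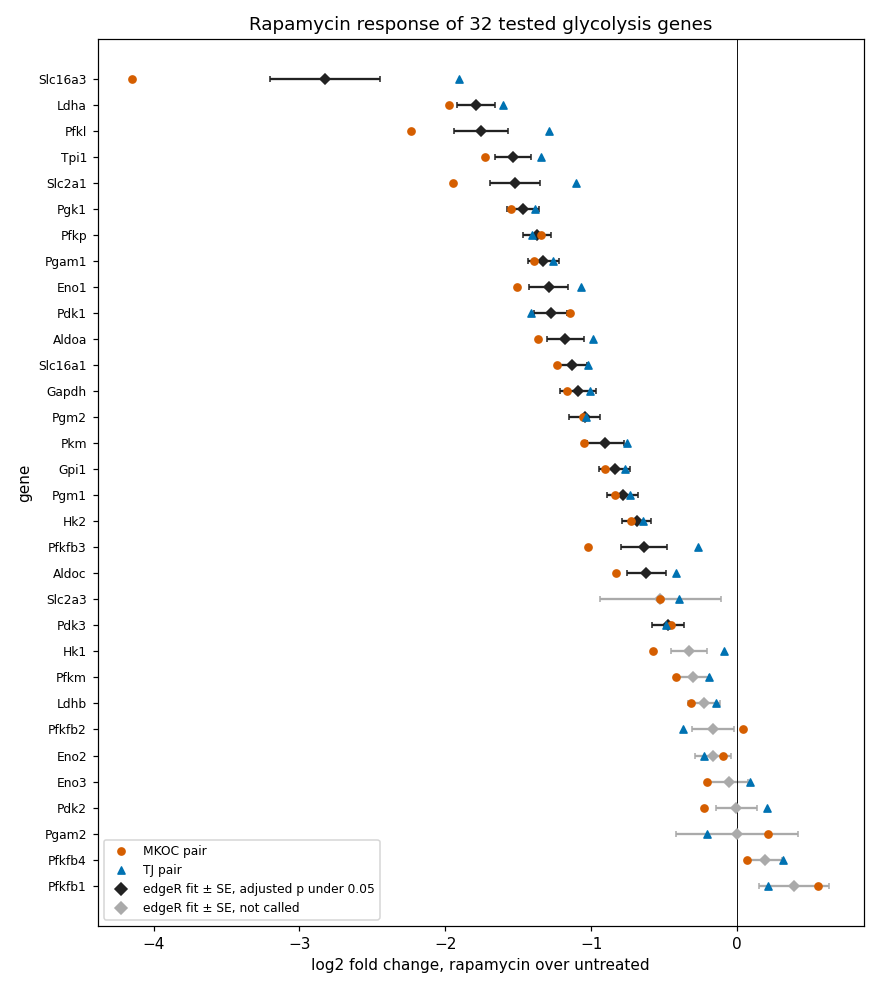
Log2 fold change with rapamycin of the 32 genes tested, with the paired change in MKOC cells (orange circles) and TJ cells (blue triangles) and the edgeR estimate with its standard error (diamonds, dark where the adjusted p was under 0.05 and grey otherwise). Slc16a3 is at the top with -4.14 in MKOC and -1.90 in TJ, and the 11 genes not called lie between -0.52 (Slc2a3) and 0.39 (Pfkfb1) in the fit.

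**Figure D3:**
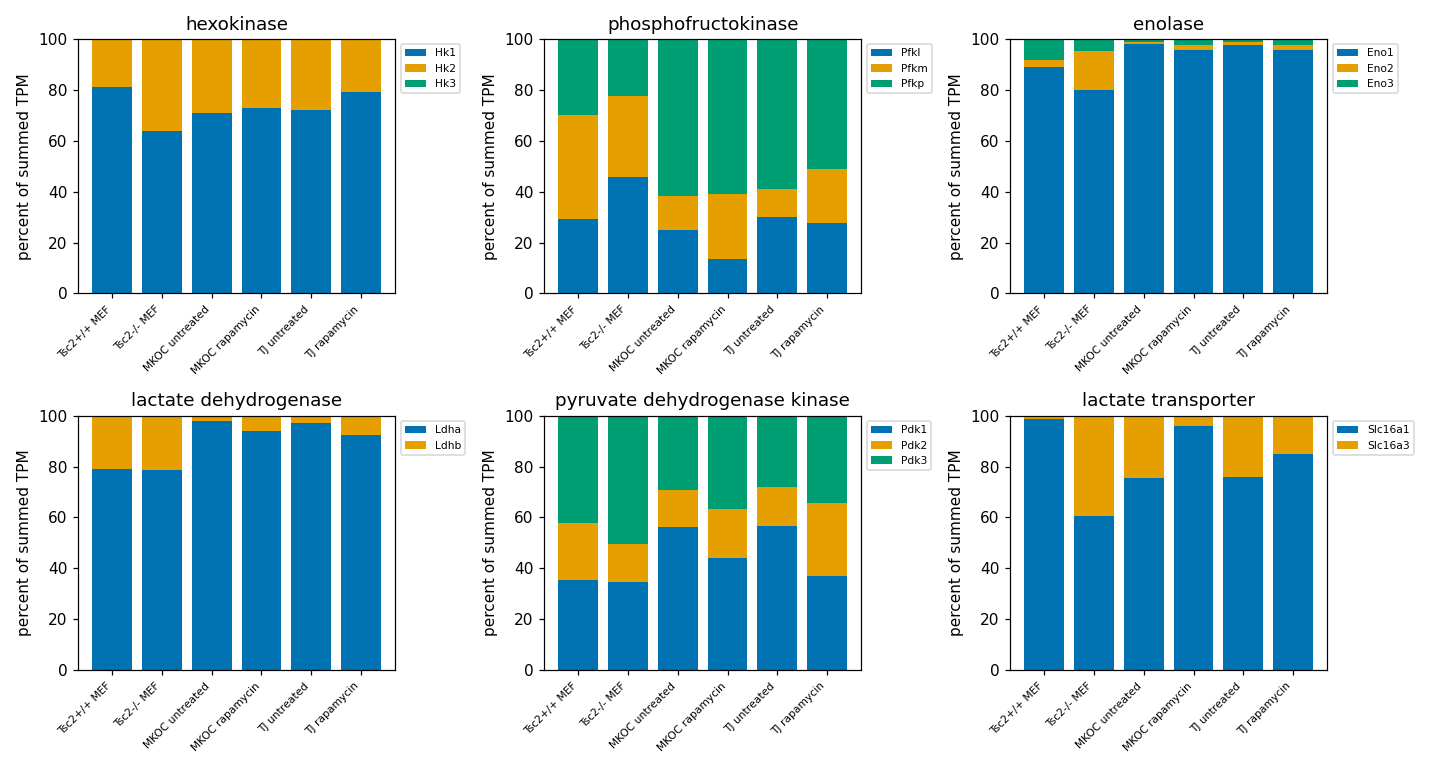
Share of each isozyme in the summed TPM of its family, in percent, in each of the 6 libraries (stacked bars). In both kidney lines the Slc16a3 share of the lactate transporters is smaller with rapamycin (3.996% against 24.6% in MKOC, 15.2% against 24.1% in TJ), and the Ldhb share of lactate dehydrogenase is larger.

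Most members fell more in MKOC cells than in TJ cells. Of the 21 genes called lower, 18 (85.7%) had the larger fall in MKOC, against 48.3% of all genes called lower. The exceptions were *Pfkp*, *Pdk1* and *Pdk3*. The gap was widest for *Slc16a3*, then *Pfkl* (-2.24 in MKOC, -1.29 in TJ), *Slc2a1* (-1.95 and -1.10) and *Pfkfb3*. With 1 pair per line the difference between lines was not tested.

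A further 46 genes covering other glucose transporters, side branches, pyruvate oxidation and gluconeogenesis were listed, of which 30 could be tested. Of these, 15 were called lower and 4 higher, against 17.4% and 17.5% of all genes tested, so that the count of rises was near the background, and their median log2 fold change was -0.27. The largest falls were in *Pck2*, the mitochondrial PEP carboxykinase (-1.18 ± 0.10, edgeR adjusted p = 2.87e-05), *Got1*, the cytosolic aspartate aminotransferase (-1.06 ± 0.10, edgeR adjusted p = 5.04e-05), and *Mpc1*, a subunit of the mitochondrial pyruvate carrier (-0.71 ± 0.10, edgeR adjusted p = 0.00073). The largest rises were in *Slc2a6* (0.77 ± 0.14, edgeR adjusted p = 0.00266) and *Slc2a8* (0.75 ± 0.19, edgeR adjusted p = 0.0134), which encode transporters found on intracellular membranes, and in *Pdk4*, a pyruvate dehydrogenase kinase induced by fasting (0.77 ± 0.21, edgeR adjusted p = 0.0191).

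Untreated MKOC and TJ cells expressed the glycolysis and transporter genes at levels within 2-fold of each other. Of 31 members at 1 TPM or more in a kidney library, 0 were at least 2-fold higher and 0 at least 2-fold lower in TJ than in MKOC cells in both treatment states (TPM with 1 added), where 0.959% and 0.314% of 12414 genes were, shares so small that counts of 0 show nothing particular to these genes. The widest difference among untreated cells was a log2 fold change of 0.79 for *Pfkfb3*, higher in TJ. In the rapamycin-treated libraries alone, 3 of the 31 genes were at least 2-fold higher in TJ cells, against 2.94% of all genes, namely *Slc16a3* (1.76), *Pfkfb3* (1.57) and *Pfkl* (1.16). There was 1 library per line and state, so no test was made.

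In the MEFs, the largest differences were in genes that the Tsc2+/+ library hardly expressed. There was 1 library per genotype, so the values compare 2 libraries, with no test and no replicate check. On the TPM scale with 1 added, 13 of 32 genes at 1 TPM or more were at least 2-fold higher in the Tsc2-/- library (40.6%, against 25.2% of 12771 genes) and 0 were at least 2-fold lower (against 5.18%). This scale leans upward for all genes, whose median log2 fold change was 0.45, while that of the 32 genes was 0.78. Transcripts under 300 bases took 20.9% of the TPM in Tsc2+/+ MEFs and 7.12% in Tsc2-/- MEFs, which lowers the TPM of longer genes in the former. On TMM-normalized counts (CPM, scaled to the library total), where the median log2 fold change of all genes was -0.0042, 7 of the 32 were at least 2-fold higher (21.9%, against 15.3% of all genes), 1 was at least 2-fold lower (against 9.28%), and the median of the 32 was 0.28. Both scales are given in what follows.

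*Slc2a3* showed the largest difference, at 0.0432 TPM (8.27 counts) in Tsc2+/+ and 50.6 TPM (2205 counts) in Tsc2-/- MEFs, a CPM ratio of 395 with a 95% exact interval of 199.9 to 915 that covers counting error only. It made up 28.4% of the TPM of the *Slc2a1* and *Slc2a3* pair there and 0.0781% in Tsc2+/+ MEFs. *Slc2a1* was at 55.3 and 128 TPM, with a CPM ratio of 1.62 (1.55 to 1.69). The GLUT3 gene reached 1 TPM in 1 of the 6 libraries.

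The lactate exporter gene *Slc16a3* was at 0.723 TPM in Tsc2+/+ and 49.5 TPM in Tsc2-/- MEFs (30 and 1336 counts), a CPM ratio of 63.7 (44.4 to 94.9). Its partner *Slc16a1* was at 56.6 and 76.0 TPM, a CPM ratio of 0.943 (0.910 to 0.978). The TPM and CPM values of *Slc16a1* lay on opposite sides of no difference. *Aldoc* was at 0.346 and 16.7 TPM (CPM ratio 44.4, 25.1 to 86.7) and *Eno2* at 15.2 and 115 TPM (6.47, 5.92 to 7.08). The summed RNA of 2 isozyme genes known from brain was thus higher in the Tsc2-/- library, with *Eno2* split over coding and retained-intron transcripts.

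Among the more abundant enzymes, *Tpi1* (184 and 782 TPM, CPM ratio 3.01), *Hk2* (10.3 and 41.4 TPM, 2.84) and *Pgam1* (229 and 714 TPM, 2.20) were at least 2-fold higher on both scales. *Pfkl* (29.3 and 83.3 TPM, 1.95), *Ldhb* (78.2 and 171 TPM, 1.55), *Ldha* (297 and 634 TPM, 1.51) and *Gpi1* (214 and 435 TPM, 1.37) passed 2-fold by TPM alone. Other members were near equality by CPM, among them *Pkm* (1014 and 1428 TPM, CPM ratio 0.994), *Eno1* (485 and 602 TPM, 0.972), *Pfkm* (41.0 and 57.7 TPM, 0.992) and *Pfkp* (30.0 and 40.7 TPM, 0.981). *Pdk2* was the one member at least 2-fold lower by CPM (15.3 and 10.5 TPM, CPM ratio 0.469), followed by *Eno3* (44.9 and 35.4 TPM, 0.541), *Pdk1* (24.2 and 24.1 TPM, 0.661), the scarce *Pgam2* (3.45 and 3.33 TPM, 0.695) and *Pgk1* (639 and 674 TPM, 0.746). Of the 46 further pathway genes, 28 could be compared in the MEFs, and 6 by TPM and 4 by CPM were at least 2-fold higher, while 1 and 2 were at least 2-fold lower. Set against 25.2% and 15.3% of all genes higher and 5.18% and 9.28% lower, these counts were near the background.

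**Figure D4:**
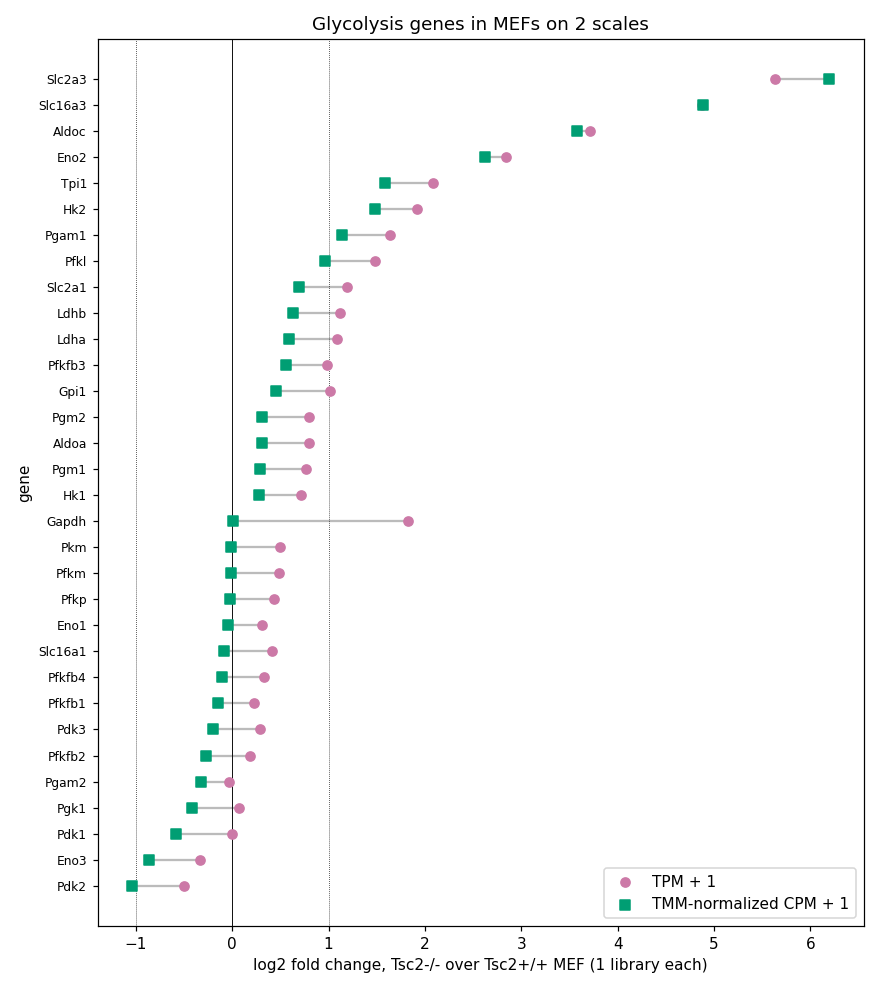
Log2 fold change between the Tsc2-/- and Tsc2+/+ MEF libraries (1 library each) for 32 genes, on TPM with 1 added (circles) and TMM-normalized CPM with 1 added (squares), with dotted lines at 2-fold. The circles lie to the right of the squares for most genes, and the widest gap is that of Gapdh (1.83 against 0.01).

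*Gapdh* gave the largest gap between the scales. By TPM it was 3.54-fold higher in the Tsc2-/- library, and by CPM the ratio was 1.005 (0.991 to 1.02). The difference lay in which of its transcripts received the reads. In Tsc2-/- MEFs 14886 counts were assigned to a retained-intron transcript of 565 bases and 6169 to a processed transcript of 483 bases, where Tsc2+/+ MEFs had 49 and 69. The main coding transcript, of 1420 bases, carried 97.5% of the *Gapdh* counts with the Tsc2+/+ label and 34.9% with Tsc2-/-. In each kidney library it carried at least 81.9%. Its level was 1232 TPM (47629 counts) in the Tsc2+/+ and 624 TPM (11963 counts) in the Tsc2-/- MEFs, lower in the latter. Both ratios thus describe the summed transcripts and not the main coding one. A read on a short transcript counts for more TPM than one on a long transcript.

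**Figure D5:**
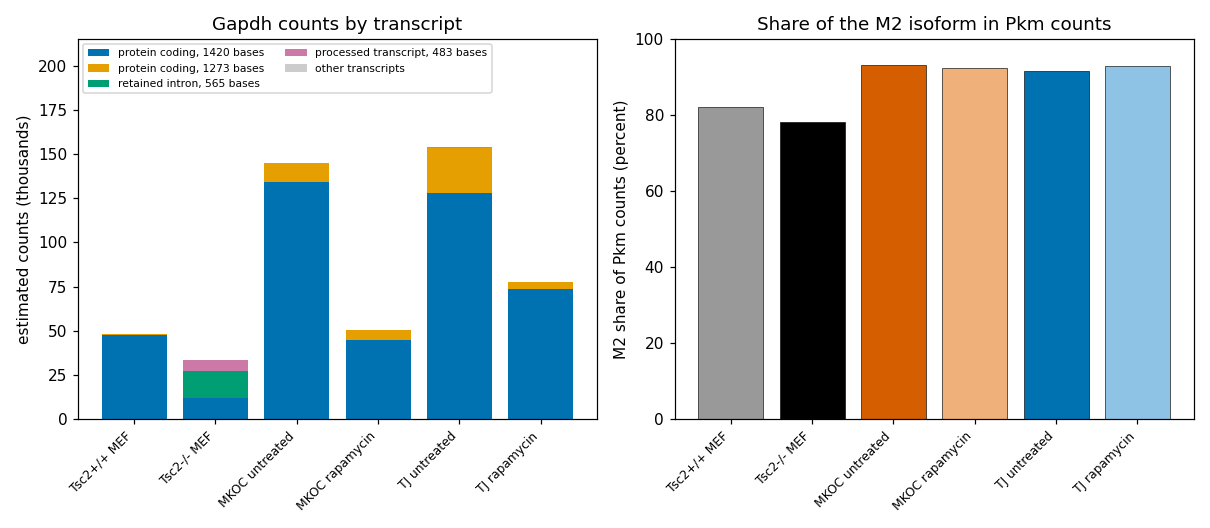
Left, estimated counts of Gapdh in each library, stacked by transcript, which the key names by type and length. Right, M2 share of Pkm counts in percent. The Tsc2-/- MEF bar is the one with large parts for the transcripts of 565 and 483 bases, and the M2 share is 82.1% and 78.3% in the MEFs and 91.7% to 93.0% in the kidney lines.

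Other members were also split over several transcripts. The M2 share of *Pkm* counts was 82.1% with the Tsc2+/+ label and 78.3% with Tsc2-/-, again without an interval, and no difference from the kidney lines is read. *Pdk1* counts fell largely on 2 transcripts. A coding one of 5185 bases held 44.7% of them in untreated and 49.8% in treated MKOC cells. One of 2972 bases, annotated as a processed transcript, held 44.9% and 40.2%. By TPM the coding one held 21.6% and 24.4%, at 15.9 and 8.09 TPM, and a processed transcript of 777 bases held 34.2% and 39.5%. In untreated and treated TJ cells the coding one was at 18.0 and 7.39 TPM. *Pfkp* divided between coding transcripts of 2679 bases (57.0% of counts in untreated MKOC cells) and 4145 bases (38.1%). *Hk1* divided mainly among coding transcripts of 4278, 2916 and 3639 bases, with 45.7%, 37.9% and 16.2% of its counts there. For *Eno1*, a short coding transcript of 773 bases took 8.1% of the counts with the Tsc2+/+ label and 3.1% with Tsc2-/-. Its share was under 1% in the kidney libraries. In Tsc2-/- MEFs, coding transcripts of *Eno2* of 2795 and 2386 bases held 23.5% and 18.0% of its counts. A retained-intron transcript of 2491 bases held 35.9%. These coding transcripts were at 15.8 and 14.4 TPM there and at 2.61 and 0.523 TPM in Tsc2+/+ MEFs.

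Set against the kidney lines, the MEF libraries had lower levels of the main lactate-forming enzyme and a larger share of its partner. *Ldha* was at 297 and 634 TPM in the MEFs and at 3486 and 3379 TPM in the untreated kidney lines, and *Ldhb* made up 20.8% and 21.3% of lactate dehydrogenase TPM in the MEFs. With rapamycin the kidney lines were at 891 and 1119 TPM, still above both MEF libraries. Phosphofructokinase also differed in make-up, *Pfkp* holding 29.9% and 22.4% of its TPM in the Tsc2+/+ and Tsc2-/- MEFs and 61.8% and 59.1% in untreated MKOC and TJ cells. Cell type, line and culture cannot be told apart in this contrast.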

How the data were processed

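Poly(A)-selected stranded RNA-seq libraries were quantified by the authors with kallisto, and the deposited tables give estimated counts and TPM per transcript (the version is not given in the sources used here; the study's methods name a human transcriptome as the reference, whereas the transcript IDs in these tables are mouse, so the index is uncertain). The deposited table that pairs transcripts with gene symbols also holds the authors' own comparisons between samples as fold ratios, which were not used. Estimated counts and TPM were summed per symbol, and transcripts were placed by GENCODE M21 (GRCm38). No value was filtered beyond what follows. The members and lists were chosen with earlier results of these data known, and every member of the list is named.

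For rapamycin, estimated counts of the 4 kidney libraries were rounded and passed through filterByExpr. After TMM normalization, edgeR 4.0.16 (R 4.3.3) gave a quasi-likelihood test in a model that held cell line and treatment, and p-values were adjusted by Benjamini-Hochberg over 12952 genes at 0.05. The standard error is the log2 fold change over the root of the F statistic. The pairing comes from the line named in the labels, and deviations of paired libraries over genes had a correlation of 0.56. Changes in a single line used TMM-scaled CPM with a prior count of 2. MEF libraries and the kidney lines were compared by the fold of TPM + 1, without a test, for genes at 1 TPM or more, with intervals by the exact binomial method at 95%, for counting error only. The edgeR step was tested on simulated data. DESeq2 1.42.0, limma 3.58.1, upper-quartile normalization, other pseudocounts (0.1 and 5 TPM), other scalings, no filter, no replicate block and leaving out libraries were tried as alternatives. Depth was 22887020 to 37505004 estimated counts per library, and 0.372% to 0.468% of counts fell on transcripts without a symbol.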

Additional observations from a re-analysis of the deposited data

Results flagged for a closer look

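*Pdk2* stood out because its change with rapamycin went opposite ways in the 2 kidney lines, by more than counting error in each. The paired log2 fold change was -0.223 for MKOC and 0.206 for TJ. The difference between the lines was not tested, since each line has 1 pair of libraries. Of the 32 genes tested, 3 more (*Eno3*, *Pfkfb2* and *Pgam2*) also differed in sign between the lines, but within counting error in at least 1 line.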

How the results depend on the processing

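With upper-quartile normalization, DESeq2 or limma on TPM, 21 of the 32 genes tested were called lower with rapamycin, and without a filter on low counts 22 were, *Hk1* being added. In the fit without the replicate block (the pairing by cell line), 16 were called lower and all genes called went from 4526 to 1275. The cause was not tested. Fits on 3 libraries without the replicate block, chosen after seeing the data, called from 0 to 15 members lower: 5 without untreated MKOC, 11 without treated MKOC, 0 without untreated TJ and 15 without treated TJ, where 96, 613, 0 and 531 of all genes were called. In each such fit 1 arm had 1 library, assumed to vary like the other arm. *Pfkfb3* turned to 0.10 without treated MKOC and 0.016 without untreated TJ, and was at -0.87 without untreated MKOC and -1.53 without treated TJ. The members' median log2 fold change was -0.74 in the TJ pair and -0.96 in the MKOC pair. No alternative with a test called a member higher.

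In the MEFs, the members' median log2 fold change of 0.78 became 0.40 when TPM was scaled to a median ratio of 1, 0.28 on TMM-normalized CPM and 0.56 without transcripts under 300 bases. The count at least 2-fold higher, 13 by TPM, became 7 by CPM, and that at least 2-fold lower went from 0 to 1. Members at least 2-fold higher in TJ than MKOC cells ranged from 0 in untreated libraries to 3 in treated ones. Depth limits *Hk3*, *Pgam2* and, in the kidney lines, *Slc2a3*, which had few counts there.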
